A study of Mus musculus with 68 samples.

Results

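The transgene effect on an osteopontin-null background was examined in mice of 16 to 17 weeks, by setting 6 arrays of OPN-/- TRAMP +/- animals against 5 arrays of OPN-/- TRAMP -/- animals. These are 11 of the 68 arrays of the series, chosen by the genotype, ID code and age that the labels give, and all 22206 target probe sets of the array were tested. Differences are given as transgenic minus non-transgenic. The series measured total RNA on Clariom S arrays from wild-type, SPARC-/- and OPN-/- mice with and without the TRAMP transgene at early (16 to 19 weeks) and late (24 to 29 weeks) ages. OPN is osteopontin, the secreted phosphoprotein encoded by Spp1, and both groups compared here are labelled as lacking it. The transgenic arrays (OT8, OT9 and OT11 to OT14) came from 5 animals of 16 weeks and 1 of 17 weeks, OT14, and the non-transgenic ones from 1 animal of 16 weeks, O1, and 4 of 17 weeks, O8 to O11. The labels call every sample, the non-transgenic ones included, a prostate tumour, and give no lobe, histology or tumour grade for these 11 animals. An array with the code O12 was left out, because its labels name it SPARC-/- while its code belongs to the OPN-/- series. Every array had an ID code of its own. Exact permutation p-values rest on the spread between the arrays they use. Those of limma, a linear-model fit, rest on a spread pooled over 12 groups in 67 arrays.

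In TRAMP mice the promoter of the rat probasin gene, an androgen-dependent gene of the prostate epithelium, drives the SV40 T antigens. Large T antigen binds the RB family of pocket proteins and p53; freeing E2F transcription factors from RB switches on genes for DNA synthesis and mitosis. Young TRAMP prostates are known for epithelial hyperplasia and intraepithelial neoplasia, and older ones for invasive carcinoma that can be neuroendocrine. The transgene is targeted to epithelium, whereas the arrays measured RNA of whole tissue, in which fewer cells of a type and less RNA per cell cannot be told apart.

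The promoters below are shown so that motifs of E2F, of the cell cycle and of the androgen receptor can be looked for in them. They belong to the 3 DNA replication and E2F-target genes with the largest called rises that had an entry in the promoter table (Hells, E2f8 and Mcm6), and to Pbsn, the mouse probasin gene, whose rat counterpart supplies the transgene's promoter. The sequences are from RefSeq on GRCm38.p6 and run 5′ to 3′ on the gene's strand, from 250 bases before to 50 bases after the start. Capitals mark motif matches. The motifs searched on both strands were the E2F motifs TTTCCCGC and TTTGGCGC, the cell-cycle element CHR (TTTGAA), the CCAAT box, and the androgen response element, taken as the half-sites AGAACA and TGTTCT 3 bases apart. The windows are chr19:38930740-38931039 on the + strand for Hells, chr7:48881547-48881846 on the - strand for E2f8, chr1:128359656-128359955 on the - strand for Mcm6 and chrX:77853451-77853750 on the - strand for Pbsn.
Hells: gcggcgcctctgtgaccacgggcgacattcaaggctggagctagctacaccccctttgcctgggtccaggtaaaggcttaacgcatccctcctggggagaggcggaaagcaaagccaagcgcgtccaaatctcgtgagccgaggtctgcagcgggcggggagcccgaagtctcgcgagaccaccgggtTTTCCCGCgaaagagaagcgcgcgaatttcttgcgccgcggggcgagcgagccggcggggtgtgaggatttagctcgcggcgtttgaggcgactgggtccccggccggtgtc
E2f8: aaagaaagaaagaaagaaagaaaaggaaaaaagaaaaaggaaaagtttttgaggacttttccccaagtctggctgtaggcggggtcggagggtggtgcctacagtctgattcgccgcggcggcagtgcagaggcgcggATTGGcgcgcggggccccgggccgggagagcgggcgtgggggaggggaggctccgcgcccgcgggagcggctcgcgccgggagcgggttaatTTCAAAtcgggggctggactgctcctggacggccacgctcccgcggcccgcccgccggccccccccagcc
Mcm6: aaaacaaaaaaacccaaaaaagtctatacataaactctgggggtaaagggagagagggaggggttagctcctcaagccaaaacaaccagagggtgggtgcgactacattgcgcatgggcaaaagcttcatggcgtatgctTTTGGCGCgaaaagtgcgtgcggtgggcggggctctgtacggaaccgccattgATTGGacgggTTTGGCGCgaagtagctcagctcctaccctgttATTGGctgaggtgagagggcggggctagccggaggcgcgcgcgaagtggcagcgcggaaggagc
Pbsn: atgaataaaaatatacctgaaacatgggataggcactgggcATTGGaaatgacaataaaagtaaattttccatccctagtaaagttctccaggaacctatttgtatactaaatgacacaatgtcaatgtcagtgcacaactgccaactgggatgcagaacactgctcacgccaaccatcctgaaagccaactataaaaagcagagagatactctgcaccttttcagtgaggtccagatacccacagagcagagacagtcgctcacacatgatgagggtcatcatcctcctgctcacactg

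The Hells promoter held 1 TTTCCCGC, starting at position -62 from the gene's start. The Mcm6 promoter held TTTGGCGC at -110 and at -47 and CCAAT on the opposite strand at -57 and -14. The E2f8 promoter held neither E2F motif in this window, but CHR at -20 and CCAAT at -112, both on the opposite strand. Of the motifs searched, the Pbsn promoter held only CCAAT, at -209 on the opposite strand, and none of the matches overlapped another. Of the 20 called genes with a symbol, 16 had a promoter in the table; Ccne2, Olfr167, Pbk and Smc4 did not. TTTCCCGC was present in 4 of the 16 (Brca2, Hells, Ncapg2 and Plscr1; 25.0%), beside 1.11% of all 27025 promoters of this length, and TTTGGCGC in 1 of 16 (Mcm6; 6.25%), beside 0.537%. CHR was present in 6 of the 16 (Asf1b, Ckap2l, E2f8, Mki67, Ncapg2 and Ube2c; 37.5%), beside 18.1% of all promoters, and CCAAT in 10 of 16 (62.5%), beside 37.9%. The androgen response element matched 1 of the 27025 promoters (0.0037%) and none of the 16. Only this exact form was searched, and it is rare. The lack of a match in the Pbsn window therefore does not show that the promoter lacks such an element. These shares describe the letters in the windows, and no test was made on them.

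The SV40 probe sets, 6 control probe sets that the array carries for that virus, were first compared to check the transgene labels. Their mean log2 value in the transgenic arrays ran from 6.65 in OT14 to 8.17 in OT13 (mean 7.19 ± 0.54 SD, n = 6). In the non-transgenic arrays it ran from 5.08 to 5.52 (5.22 ± 0.19, n = 5). The groups did not overlap, and the difference of 1.97 had a 2-sided exact permutation p of 0.0022, the smallest that 462 splits of 11 arrays can give. Array quality, taken as the area under the curve (AUC) that separates positive from negative control probe sets, was 0.739 ± 0.008 (SD, n = 6) in transgenic and 0.74 ± 0.015 (n = 5) in non-transgenic arrays (2-sided exact permutation p = 0.896). OT14 had the lowest AUC of its group, 0.723. The prostate luminal gene Pbsn was bright on all 11 arrays, between 10.13 and 12.10, while the 95th percentile of the negative controls was 9.27. Tgm4, the prostate transglutaminase, lay above that percentile on 10 of the 11 arrays and at 8.20 in O9. Seminal vesicle secretory genes were also bright on most arrays; Svs5 lay between 11.69 and 13.03 on 9 of the 11 arrays and at 5.67 in O9 and 6.08 in O10.

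In OPN-null mice of 16 to 17 weeks a small set of genes was higher with the transgene. Of the 21 called probe sets, 5 belong to the list of DNA replication and E2F targets, 2 to that of cell cycle and mitosis and 1 to that of DNA damage repair; the others are in none of the 33 lists. Limma called 21 probe sets at an adjusted p under 0.05, all 21 higher in the transgenic arrays (0.0946% of the 22206 tested) and 0 lower. At an unadjusted p under 0.05, 494 were higher and 666 lower, and the median difference of all probe sets was -0.03. All 21 had ranges that did not overlap between the groups. Over all probe sets, non-overlapping ranges occurred in 101 higher (0.455%) and 94 lower (0.423%) cases. Of the 21, 17 differed by at least 1 on the log2 scale and 20 carry a gene symbol; the unnamed one, TC1700001938.mm.2, differed by 1.52. For 18 of them the mean of the non-transgenic arrays lay above the median of the negative controls (5.38). That of Hells (5.52) and that of Mki67 (5.56) were only slightly above it. The highest of these means, 8.30 for the unnamed probe set, was below the 95th percentile of the negative controls (9.27). The count of calls was 34 with the same weight for all arrays, 113 with a weight per array and 52 with array quality as a covariate, and each of these held all 21.

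**Figure D1:**
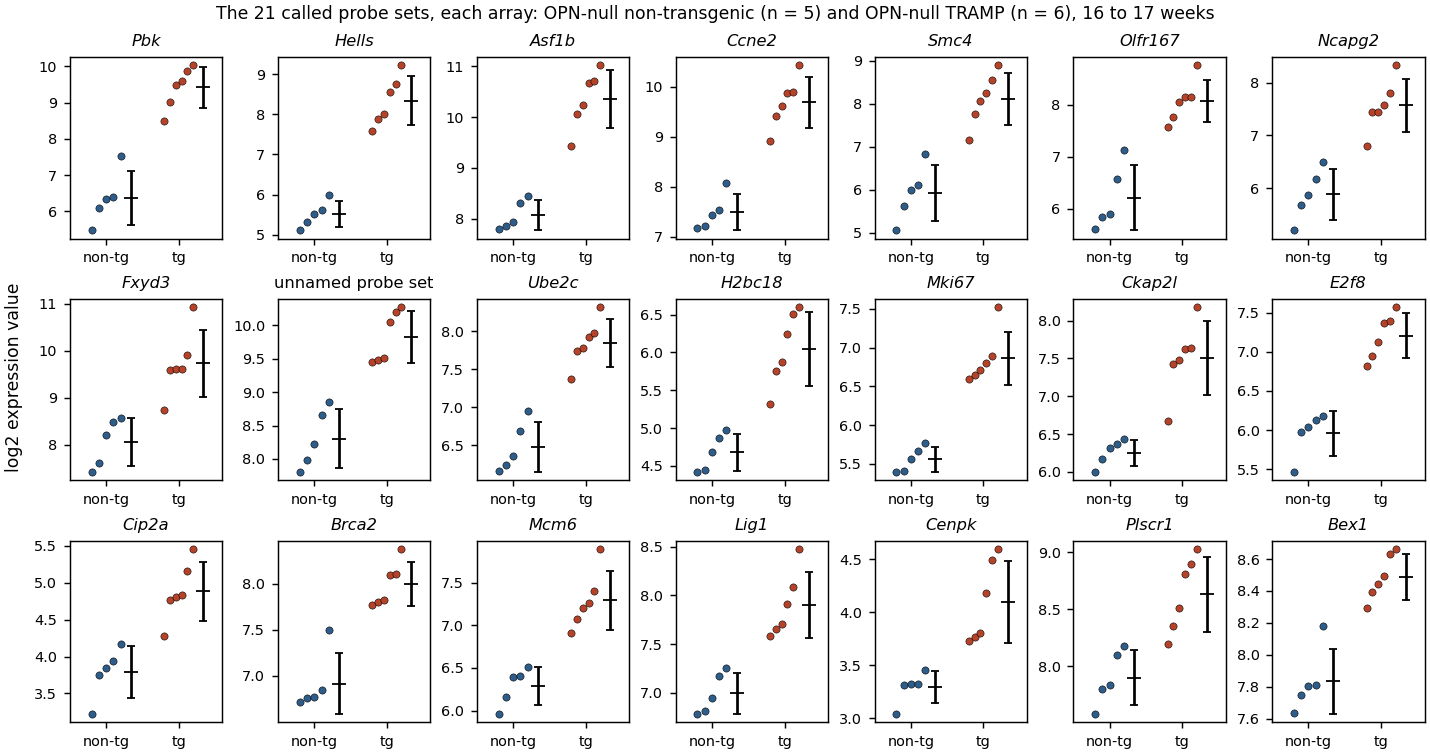
Log2 expression value (y axis, a separate scale per panel) of the 21 called probe sets on each array, for OPN-null non-transgenic (blue, n = 5) and OPN-null TRAMP arrays (red, n = 6) of 16 to 17 weeks; points are arrays sorted by value, and bars are the mean and SD. In every panel all red points lie above all blue points, by a wide gap for Hells (7.58 against 6.0) and a narrow one for Plscr1 (8.19 against 8.17).

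Of the genes of chromatin and the replication fork, Hells had the largest difference. Hells, a SNF2-type remodeller needed for normal DNA methylation, had log2 values of 5.53, 5.63, 5.12, 5.33 and 6.0 in O1, O8, O9, O10 and O11. In the transgenic arrays its lowest value was 7.58 (OT14), its median 8.28 and its highest 9.22 (OT13), so that the groups were well apart. The difference was 2.81 (SE 0.30, limma adjusted p = 5.05e-09), the smallest p of all probe sets.

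Asf1b, a chaperone that hands histones H3 and H4 to newly made DNA, was 7.94, 8.45, 7.79, 7.85 and 8.31 in the same 5 non-transgenic arrays. Its transgenic values ran from 9.43 through a median of 10.45 to 11.02, again with OT14 lowest and OT13 highest. The difference was 2.28 (SE 0.32, limma adjusted p = 1.22e-05). Mcm6, a subunit of the helicase that unwinds DNA ahead of the fork, was 6.40, 5.96, 6.51, 6.41 and 6.15 without the transgene, and 6.91, 7.23 and 7.90 (lowest, median and highest) with it. Its difference was smaller, 1.0 (SE 0.19, limma adjusted p = 0.0049). Lig1, the ligase that joins Okazaki fragments, rose by 0.91 (adjusted p = 0.00601) and H2bc18, a histone H2B gene, by 1.37 (0.00566).

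Ccne2 encodes cyclin E2, the partner of Cdk2 at the start of S phase. It was 7.54, 8.07, 7.18, 7.21 and 7.44 in O1, O8, O9, O10 and O11. Transgenic values were 8.91 (OT14) at the lowest, 9.75 at the median and 10.43 (OT13) at the highest. The lowest transgenic array was above the highest non-transgenic array, O8, and the difference was 2.20 (SE 0.32, limma adjusted p = 1.88e-05). E2f8, an atypical E2F that represses other E2F targets, rose by 1.24 (SE 0.23, adjusted p = 0.00312), from 5.98, 6.03, 5.47, 6.18 and 6.13 to between 6.82 (OT9) and 7.57 (OT13).

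Genes with known roles in mitosis are described next, a grouping made after their values were seen; of them Mki67 and Ube2c are on the mitosis list. Pbk, a mitotic protein kinase, had the largest difference of the 21. It was 5.48, 6.39, 6.34, 6.10 and 7.52 in O1, O8, O9, O10 and O11, and 8.5, 9.55 and 10.03 (lowest, median, highest) in the transgenic arrays. O11 stood above the other non-transgenic arrays but below every transgenic one, and the difference was 3.05 (SE 0.43, limma adjusted p = 1.22e-05). Mki67, which encodes the proliferation marker Ki-67, was 5.56, 5.40, 5.67, 5.76 and 5.41 without the transgene. With it, the lowest value was 6.59, the median 6.75 and the highest 7.52, and 5 of the 6 arrays lay within 6.59 to 6.89. The difference was 1.30 (SE 0.25, limma adjusted p = 0.00456).

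Ube2c, the ubiquitin-conjugating enzyme of the anaphase-promoting complex, rose by 1.37 (SE 0.25, limma adjusted p = 0.00195). Its 5 non-transgenic values were 6.24, 6.16, 6.69, 6.36 and 6.95, and its transgenic values ran from 7.37 to 8.32. The condensin genes Smc4 (core subunit; 2.20, adjusted p = 0.0195) and Ncapg2 (condensin II; 1.68, adjusted p = 0.0156) also rose. Both varied more between arrays than Mki67 did: Smc4 ran from 5.06 to 6.82 without and from 7.17 to 8.89 with the transgene. Ckap2l, a spindle protein, rose by 1.25 (0.00936), Cip2a, an inhibitor of the phosphatase PP2A, by 1.10 (0.000262), and Cenpk, a kinetochore protein, by 0.80 (0.0288). Without the transgene the H2bc18, Cip2a and Cenpk means, 4.68, 3.79 and 3.29, were below the median of the negative controls (5.38). Their levels there were therefore not above background. With the transgene the Cip2a and Cenpk means, 4.88 and 4.10, were still below that median, and that of H2bc18 was 6.05.

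Brca2, a gene of homologous recombination repair, was 6.84, 7.5, 6.71, 6.77 and 6.76 in O1, O8, O9, O10 and O11. Its transgenic values were 7.76 at the lowest, 7.96 at the median and 8.38 at the highest. O8 was the one non-transgenic array near the transgenic range, and the difference was 1.08 (SE 0.20, limma adjusted p = 0.00351).

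The other called genes do not belong to the cell division machinery. Fxyd3, a small membrane regulator of the sodium pump in epithelia, was 8.21, 7.42, 8.48, 8.56 and 7.60 without the transgene and 8.75, 9.60 and 10.93 (lowest, median, highest) with it. OT14 was only slightly above O10, while OT13 stood above the other transgenic arrays. Its difference was 1.67 (SE 0.34, limma adjusted p = 0.00942). Plscr1, an interferon-inducible phospholipid scramblase, rose by 0.73 (0.0187), and Bex1, a small brain-expressed X-linked protein, by 0.65 (0.00403). The olfactory receptor gene Olfr167 was 5.61, 5.89, 7.13, 5.84 and 6.57 without and 7.57 to 8.76 with the transgene (difference 1.87, SE 0.31, limma adjusted p = 0.000462). Olfr167, Plscr1, Bex1 and Cenpk fell outside the rule for named genes and were named after their values were seen.

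The rise was not of one size in all 6 transgenic animals. OT13 was the highest transgenic array for 20 of the 21 probe sets and OT14 the lowest for 14. OT13 also had the highest SV40 mean (8.17) and OT14 the lowest (6.65) as well as the lowest AUC. Leaving out OT13 left 13 calls and leaving out O8 left 13, each time all 13 among the 21; leaving out OT14 gave 36 calls, which held all 21. Without O9 and O10, the pair with low seminal vesicle genes, 10 probe sets were called, all among the 21: Hells, Pbk, Asf1b, Ccne2, Olfr167, Ube2c, Mki67, Mcm6, Bex1 and Fxyd3. Without that pair the difference went from 2.20 to 1.97 for Smc4, from 1.24 to 1.15 for E2f8 and from 1.08 to 0.96 for Brca2, with limma adjusted p of 0.479, 0.122 and 0.20.

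The SV40 mean was set against Hells, Asf1b, Pbk and Ccne2, the 4 genes with the smallest p, within the transgenic arrays alone. Across the 6 OPN-null TRAMP arrays Pearson's r with Hells was 0.902 (exact permutation p = 0.00556, adjusted 0.0208; Spearman's rho 0.886, adjusted 0.0455). For Ccne2 r was 0.911 (exact permutation p = 0.0139, adjusted 0.0223; rho 0.943, adjusted 0.0417). For Pbk r was 0.817 (exact permutation p = 0.0472, adjusted 0.059; rho 0.943, adjusted 0.0417), and for Asf1b 0.784 (0.0639, adjusted 0.0737; rho 0.657, adjusted 0.202). Without OT13 and OT12, the 2 arrays farthest from the median SV40 mean, r was 0.918 for Hells, 0.989 for Ccne2, 0.901 for Pbk and 0.673 for Asf1b.

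The same relation was measured in the other early transgenic groups, which share no animals with these. In the 7 early TRAMP arrays r was 0.825 for Hells, 0.927 for Asf1b, 0.933 for Pbk and 0.896 for Ccne2 (adjusted exact permutation p from 0.0208 to 0.0233). In the 6 early SPARC-null TRAMP arrays r was 0.935, 0.895, 0.926 and 0.958 for the same genes in that order (adjusted exact permutation p from 0.0208 to 0.0223). Array quality moved with the SV40 mean in the SPARC-null TRAMP arrays (r = 0.905, adjusted exact permutation p = 0.0223). In the OPN-null TRAMP arrays that r was 0.363 (adjusted exact permutation p = 0.408), but 0.928 without OT13 and OT12, and in the TRAMP arrays it was 0.053 (adjusted 0.908) and 0.651 without the 2 arrays farthest from the median. The part of array quality in the relation was not tested. The p-values were adjusted over these 15 relations by Benjamini-Hochberg.

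**Figure D2:**
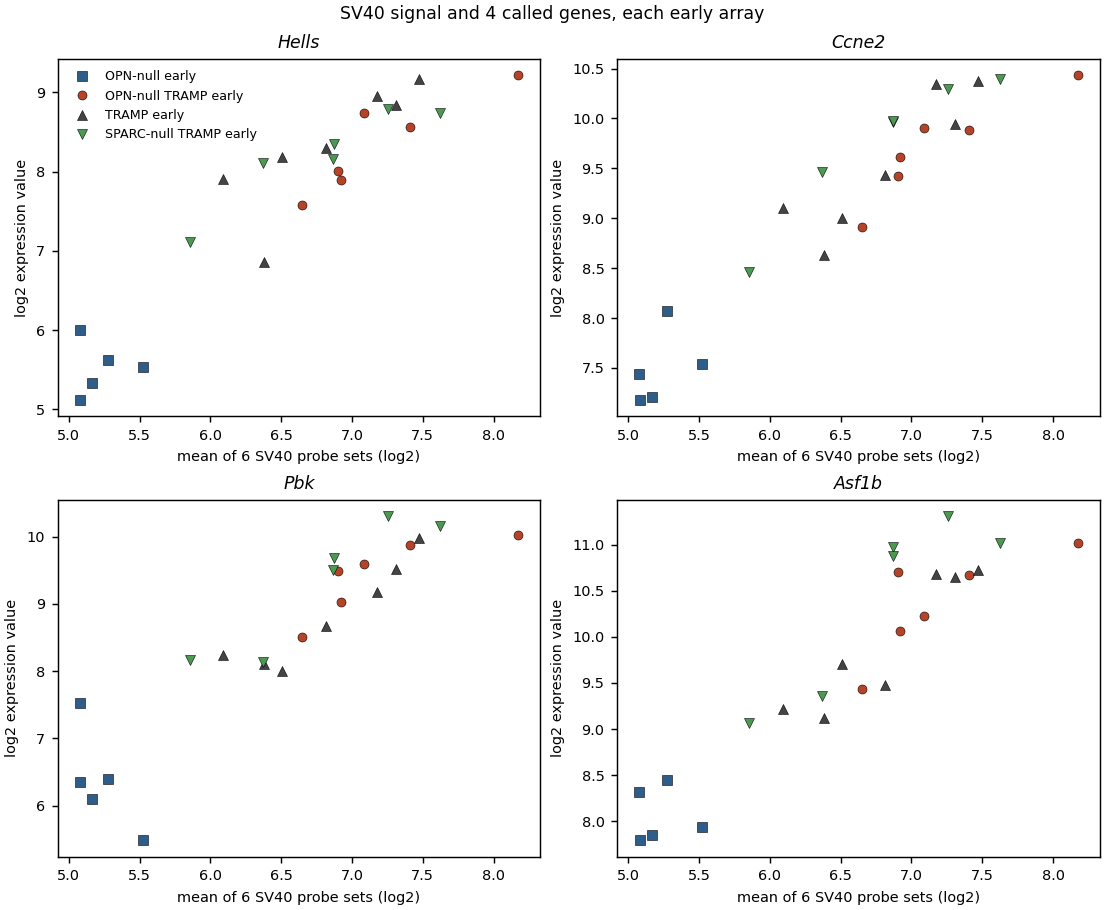
Mean log2 value of the 6 SV40 control probe sets (x axis) against the log2 expression value (y axis) of Hells, Ccne2, Pbk and Asf1b on each early array; squares are OPN-null non-transgenic arrays (n = 5), circles OPN-null TRAMP (n = 6), upward triangles TRAMP (n = 7) and downward triangles SPARC-null TRAMP (n = 6). Within each transgenic group arrays with more SV40 signal tended to have higher values, with r between 0.784 and 0.958. In the OPN-null TRAMP arrays r did not pass for Asf1b and Pbk (adjusted exact permutation p = 0.0737 and 0.059).

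The list of DNA replication and E2F-target genes, 30 of them measured, had 5 members called higher (Hells, Ccne2, E2f8, Mcm6 and Lig1) and 0 lower; 29 of the 30 differences were positive and their median was 0.57. Over all probe sets 9496 of 22206 differences were positive. Mcm4, another helicase subunit, missed the threshold with a difference of 0.88 (limma adjusted p = 0.0584). Its means, 4.17 without and 5.05 with the transgene, were both below the median of the negative controls (5.38). Of the 24 cell cycle and mitosis genes measured, 2 were called higher (Mki67 and Ube2c), 22 were positive and the median was 0.35. Among members that were not called were Ncapg, another condensin subunit, at 0.96 (adjusted p = 0.139), and Ccnb2, cyclin B2, at 0.53 (0.193). Of 13 DNA damage repair genes 1 was called higher (Brca2) and the median was 0.27. Exo1, an exonuclease, differed by 0.53 (limma adjusted p = 0.0966). Its means, 3.99 without and 4.53 with the transgene, were also both below the median of the negative controls. Just below the threshold lay further genes of the same kinds, among them Ncaph (1.06), Smc2 (0.65), Hmgb2 (1.19) and Pola2 (0.67), with adjusted p between 0.0659 and 0.0674.

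None of the other 30 lists had a called member in either direction. The 18 measured p53 target genes had a median of -0.04, and 0 of them passed even an unadjusted p under 0.05. The RB and INK4 family had a median of 0.06 over 11 genes, and its only member past an unadjusted p under 0.05 was Cdk6, at -0.43 (limma adjusted p = 0.861). Neuroendocrine genes had a median of -0.04 over 20 genes. Chga, which encodes chromogranin A, averaged 5.95 ± 0.17 (SD, n = 6) in transgenic and 6.06 ± 0.24 (n = 5) in non-transgenic arrays. Synaptophysin (Syp) averaged 6.24 ± 0.32 and 6.32 ± 0.17, and the transcription factor Insm1 5.03 ± 0.29 and 5.30 ± 0.25. The 2 groups overlapped for all 3 of these genes.

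Androgen-regulated secretory genes had a median of 0.17 over 27 genes. Pbsn was 11.30, 12.07, 10.83, 11.76 and 12.10 in the non-transgenic arrays and 10.13 (OT13), 11.43 and 11.59 at the lowest, median and highest in the transgenic ones. The groups overlapped and the difference of -0.46 (SE 0.53) did not pass the test (limma adjusted p = 1). Tgm4 differed by 0.53 (SE 0.63); O9, at 8.20, was far below every other array, which lay at 11.30 or above.

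Epithelial adhesion genes were positive for 15 of 15 members with a median of 0.22 and no call. Epcam differed by 0.67 (limma adjusted p = 0.866). The mean of this list, each gene centred over the 67 arrays, was -0.56 in O9. It ran from -0.08 to 0.11 in the other non-transgenic arrays and from -0.19 to 0.41 in the transgenic ones. The median difference of the list was -0.07 in wild type and -0.10 on the SPARC-null background. Luminal progenitor genes had a median of 0.57 over 9 genes. Their Sox9, a transcription factor of prostate buds and progenitors, was 7.58, 7.5, 7.30, 7.10 and 7.68 without and 7.58 to 8.79 with the transgene, a difference of 0.66 (limma adjusted p = 0.12). Clu, which encodes clusterin, differed by 1.47 (adjusted p = 0.429) and spanned 7.32 to 10.21 among the transgenic arrays. The mean of the luminal progenitor list ran from -0.37 to -0.04 in the non-transgenic arrays. In the transgenic ones it ran from -0.30 (OT14) to 0.71 (OT13), so the groups overlapped. The median difference of that list was 0.04 in wild type and 0.13 on the SPARC-null background. Interferon response genes were positive for 15 of 17 members with a median of 0.11; Irf7, the interferon regulatory factor, differed by 0.41 (adjusted p = 0.72).

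All 12 smooth muscle genes had negative differences, with a median of -0.49, and none passed the test; 5 of the 12 were lower at an unadjusted p under 0.05, beside 666 of all 22206 probe sets. Acta2, smooth muscle actin, was 9.76, 9.67, 10.10, 10.62 and 9.59 in O1, O8, O9, O10 and O11 and 9.21 to 9.65 in the transgenic arrays (difference -0.47, limma adjusted p = 0.992). Synpo2, an actin-binding protein of the Z-disc, differed by -0.74 (adjusted p = 0.891). O9 and O10 were the highest arrays for both genes and lay lowest for the seminal vesicle genes Svs2 (6.62 and 6.78), Svs5 and Pate4; whether the cut of tissue had a part in the smooth muscle difference was not tested. The 9 seminal vesicle genes had a median of 0.80, and none had an unadjusted p under 0.05. Skeletal muscle markers (median 0.28 over 12 genes), urothelial markers (0.00 over 7) and fat markers (-0.12 over 9) gave no call; Ckm, the muscle creatine kinase, was 7.30 to 9.25 in transgenic and 7.98 to 8.85 in non-transgenic arrays.

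Both groups are labelled OPN-/-. No probe set has Spp1 as its single symbol in the annotation used here, so the deletion was not checked on these arrays. The list of the osteopontin family, its receptors and matricellular proteins had a median of -0.16 over 21 genes and no call. Sparc, the matricellular glycoprotein deleted in the other mutant of the series, was 6.76, 6.70, 7.42, 7.25 and 7.09 in O1, O8, O9, O10 and O11. Its transgenic values were 6.35, 6.51 and 6.80 (lowest, median, highest), which overlap the non-transgenic range. The difference of -0.50 had a 2-sided exact permutation p of 0.0108 on its own and a limma adjusted p of 0.619 over all probe sets. Itga5, the fibronectin receptor's alpha subunit, differed by -0.55 (limma adjusted p = 0.464), and Fn1, fibronectin, by -0.57 (0.816). O9 and O10 were the highest of the 11 arrays for Sparc, Itga5 (6.88 and 7.21) and Fn1 (8.76 and 9.38). The part of these arrays in the differences was not tested. Immune lists had no call: medians were -0.01 for T and NK cells, -0.16 for macrophages and dendritic cells and -0.10 for B and plasma cells. Antigen presentation genes had a median of 0.06, neutrophil and mast cell genes 0.03, and TNF and NF-kB response genes -0.01. Mrc1, the macrophage mannose receptor, spanned 6.22 to 11.65 among the 6 transgenic arrays, with OT14 the highest.

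Stromal lists other than smooth muscle lay slightly below 0: the median was -0.16 for fibroblasts, -0.15 for fibrillar collagen and matrix, -0.10 for basement membrane, -0.08 for mesenchymal transition and -0.08 for endothelium. Basal epithelium had a median of -0.10 and autonomic neurons and glia 0.00. Metabolic and secretory lists were nearer to the median of all probe sets, at -0.03 for the secretory pathway and unfolded protein response, -0.07 for polyamine, citrate and zinc metabolism, -0.04 for lipid and cholesterol synthesis and -0.02 for hypoxia and glycolysis.

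**Figure D3:**
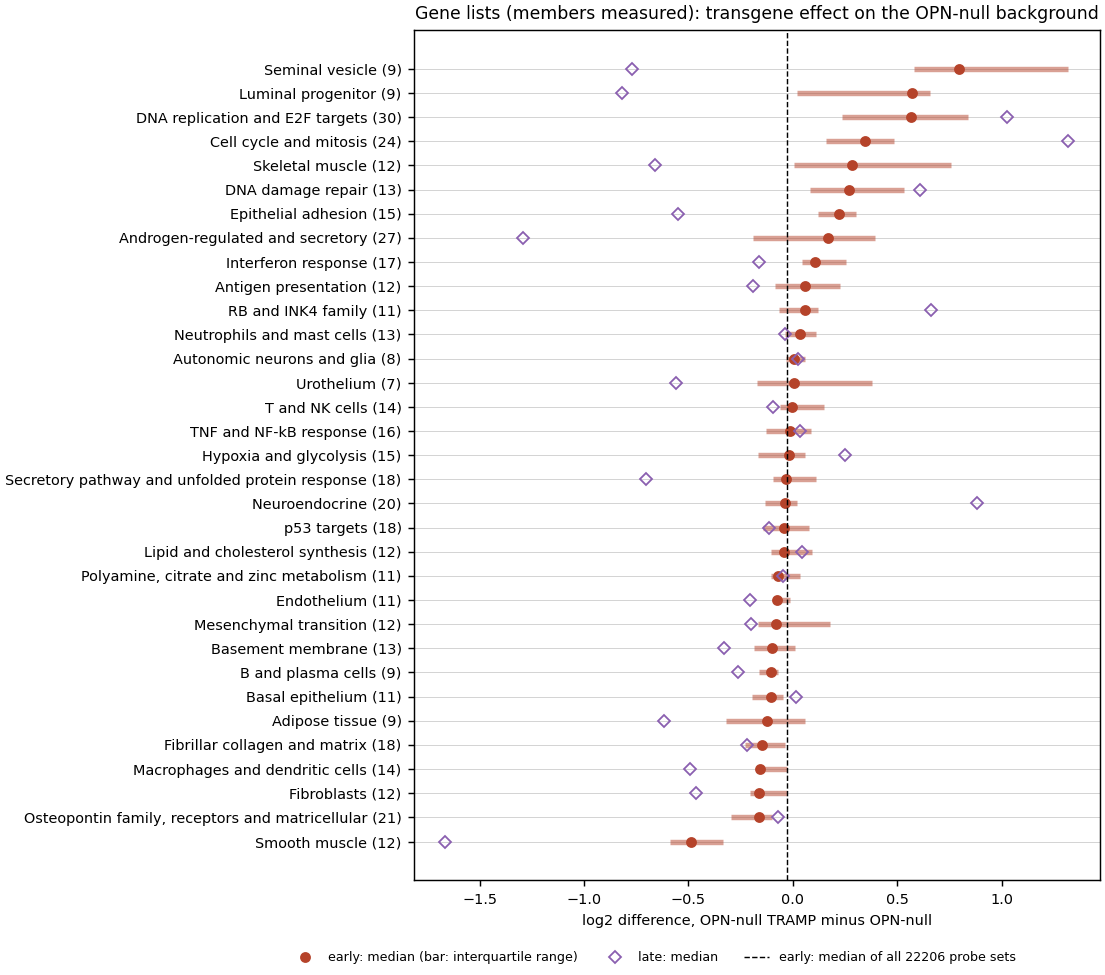
Median log2 difference (x axis), OPN-null TRAMP minus OPN-null, of each gene list (y axis, number of measured members in brackets): circles are the early comparison with bars spanning the interquartile range, diamonds the late comparison, and the dashed line the early median of all 22206 probe sets. The replication and mitosis lists lie to the right at both ages (0.57 and 1.03; 0.35 and 1.32), while the neuroendocrine list lies at -0.04 early and 0.88 late.

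The same contrast was then read in wild-type mice, as 7 early TRAMP against 4 early wild-type arrays. There 8 probe sets were called, 7 of them higher (0.0315% of all). All 21 differences were positive in wild type too, with a median of 0.93. Of the 21 probe sets, 5 were called higher there (Hells, Ccne2, Olfr167, Ube2c and Mki67), which is 23.8% of the 21 and 71.4% of the 7. Hells rose by 2.5 (SE 0.31, limma adjusted p = 1.26e-06) and Mki67 by 1.35 (SE 0.26, 0.0142) in wild type. Pbk differed by 1.61 (SE 0.45, adjusted p = 0.222) and Asf1b by 1.44 (SE 0.33, 0.101). With array quality as a covariate 15 of the 21 were called in wild type. The test of the difference between the OPN-null and wild-type effects gave 0 calls in limma, with 986 probe sets at an unadjusted p under 0.05 and a smallest adjusted p of 0.868. For Pbk the OPN-null effect was larger by 1.44 and for Asf1b by 0.85, and neither passed.

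On the SPARC-null background, 6 early transgenic arrays of 18 to 19 weeks were compared with 7 non-transgenic arrays of 16 to 18 weeks. Limma called 558 probe sets there, 324 of them higher (1.46% of all). Of the 21, 16 were called higher on that background, which is 76.2% of the 21 and 4.94% of the 324, and all 21 were positive. The 5 that were not called were Cip2a (0.47), Ncapg2 (0.90), Smc4 (1.13), Cenpk (0.36) and the unnamed probe set (0.99). The test of the difference between the OPN-null and SPARC-null effects gave 0 calls in limma, with 1711 probe sets at an unadjusted p under 0.05 and a smallest adjusted p of 0.556. The numbers of calls on the 3 backgrounds are therefore not shown to differ gene by gene.

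The late comparison on the OPN-null background set 3 TRAMP arrays of 24 to 27 weeks against 3 non-transgenic arrays of 24 weeks. Their AUC averaged 0.708 ± 0.022 (SD, n = 3) and 0.705 ± 0.036 (n = 3), the lowest means of the 12 groups. The early OPN-null groups averaged 0.739 and 0.740. Late and early effects are thus compared across a difference in array quality, and counts with quality as a covariate are given below. It gave 2643 calls, 1611 of them higher (7.25% of all). Of the 21 early probe sets, 17 were called higher late (81.0% of the 21 and 1.06% of the 1611), and Fxyd3 and Plscr1 were called lower. The test of the late effect minus the early effect called 811 probe sets higher (3.65% of all) and 317 lower (1.43%). Among the 21, 8 were called in that test, 5 with a larger late effect (Asf1b, Pbk, Cip2a, Ube2c and H2bc18) and 3 with a lower one (Olfr167, Fxyd3 and Plscr1).

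Pbk had effects of 3.05 early and 5.47 late, and the difference of 2.41 passed the test (limma adjusted p = 0.0329). Ube2c went from 1.37 to 3.52 (difference 2.15, adjusted p = 0.000303). For H2bc18 the difference of 3.07 (adjusted p = 2.19e-06) rests on non-transgenic means of 4.68 early and 4.31 late. Both were below the median of the negative controls, so its effects of 1.37 and 4.44 are not set against a level above background. The same holds for Cip2a, with non-transgenic means of 3.79 early and 3.79 late. Hells (2.81 and 3.5, adjusted p = 0.497), Brca2 (1.08 and 0.88, 0.809), Mcm6 (1.0 and 0.85, 0.859) and Bex1 (0.65 and 0.65, 0.999) did not pass that test.

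Fxyd3 reversed. It was higher by 1.67 with the transgene early and lower by 1.56 late on this background (late effect -1.56, SE 0.46), and the difference of -3.24 passed the test (SE 0.57, limma adjusted p = 7.39e-05). Its mean was 9.73 ± 0.70 (SD, n = 6) in early and 6.44 ± 0.24 (n = 3) in late OPN-null TRAMP arrays. Late TRAMP arrays averaged 9.88 ± 0.42 (n = 7) and late SPARC-null TRAMP arrays 10.16 ± 0.32 (n = 9), so that among the transgenic groups only the late OPN-null TRAMP arrays were low. The late effect on Olfr167, -0.82 (SE 0.42), did not pass the test (limma adjusted p = 0.208), while its difference of -2.68 from the early effect did (adjusted p = 0.000385). Its mean went from 8.08 ± 0.41 (n = 6) early to 6.39 ± 0.73 (n = 3) late in OPN-null TRAMP, beside 8.43 ± 0.32 (n = 7) and 8.33 ± 0.56 (n = 9) in the late TRAMP and SPARC-null TRAMP arrays, and the late OPN-null arrays without the transgene averaged 7.21 ± 1.12 (n = 3). Plscr1 had effects of 0.73 early and -0.68 late.

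**Figure D4:**
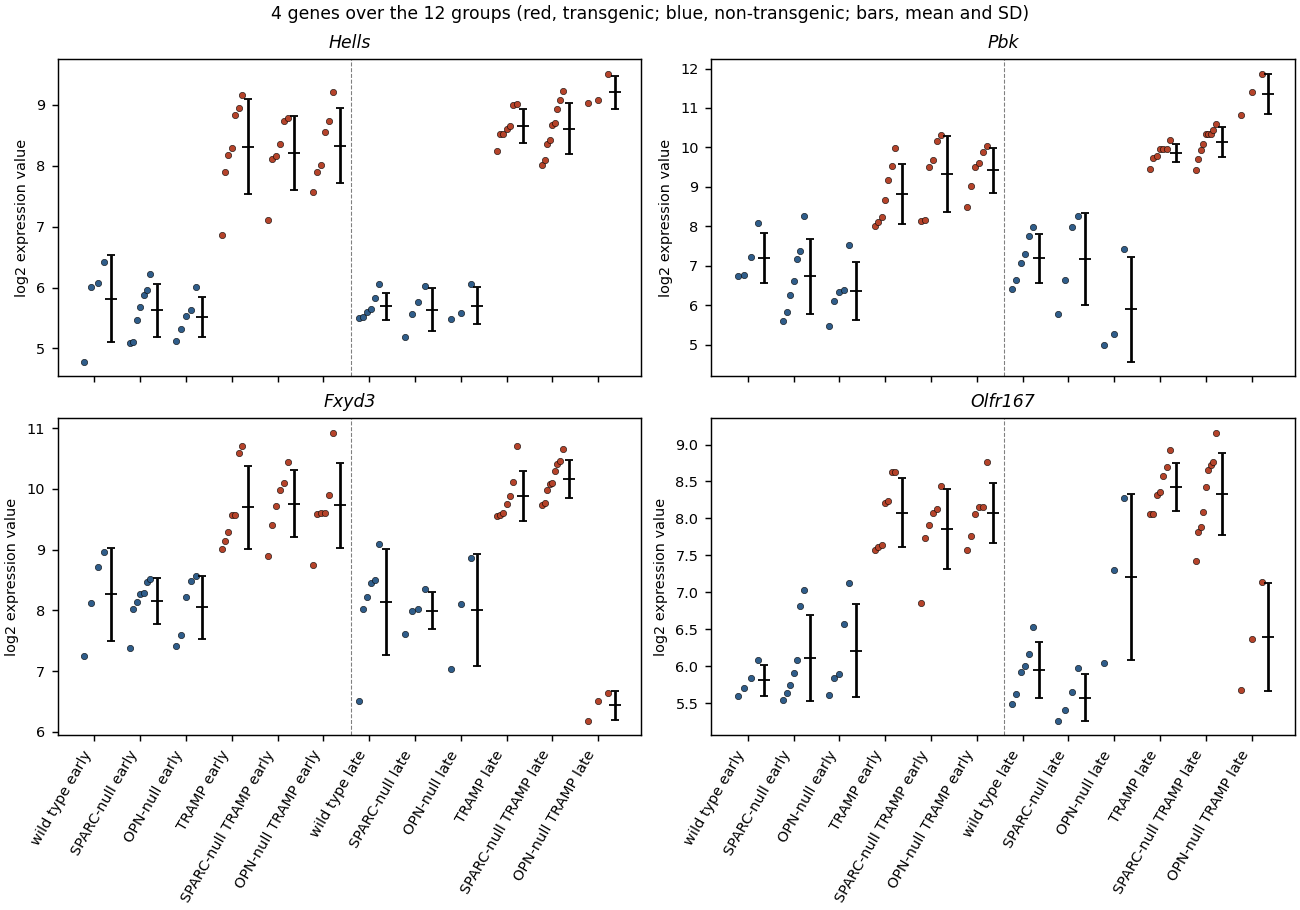
Log2 expression value (y axis) of Hells, Pbk, Fxyd3 and Olfr167 in each array of the 12 groups (x axis; early groups left of the dashed line, late groups right); red points are transgenic and blue points non-transgenic arrays, and bars are the mean and SD. Hells and Pbk are high in all 6 transgenic groups, and Fxyd3 and Olfr167 are high in 5 of them and low in the late OPN-null TRAMP arrays (6.44 and 6.39).

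The 5 genes with the largest called differences each way between the late and the early effect were not among the 21. Elavl3 and Elavl4, neuronal RNA-binding proteins, had early effects of -0.08 and 0.00 and late effects of 4.22 and 3.89 (limma adjusted p of the difference 4.47e-17 and 1.75e-15). Slc25a21, a mitochondrial carrier, went from 0.18 to 5.18, and Ccn3, a matricellular protein, from 0.23 to 4.46. The early means of Elavl3, Elavl4 and Slc25a21, between 3.81 and 4.81 in both groups, were below the median of the negative controls (5.38), so their effects are not set against a level above background. Pbsn went from -0.46 to -6.17 and Tgm4 from 0.53 to -3.91. Syp rose by 1.56 and Insm1 by 1.61 late. The early means of Insm1 were below the median of the negative controls in both groups. Of the 20 neuroendocrine genes measured, 12 were called higher late and 0 lower, beside 7.25% of all probe sets called higher; early, 0 of the 20 were called.

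**Figure D5:**
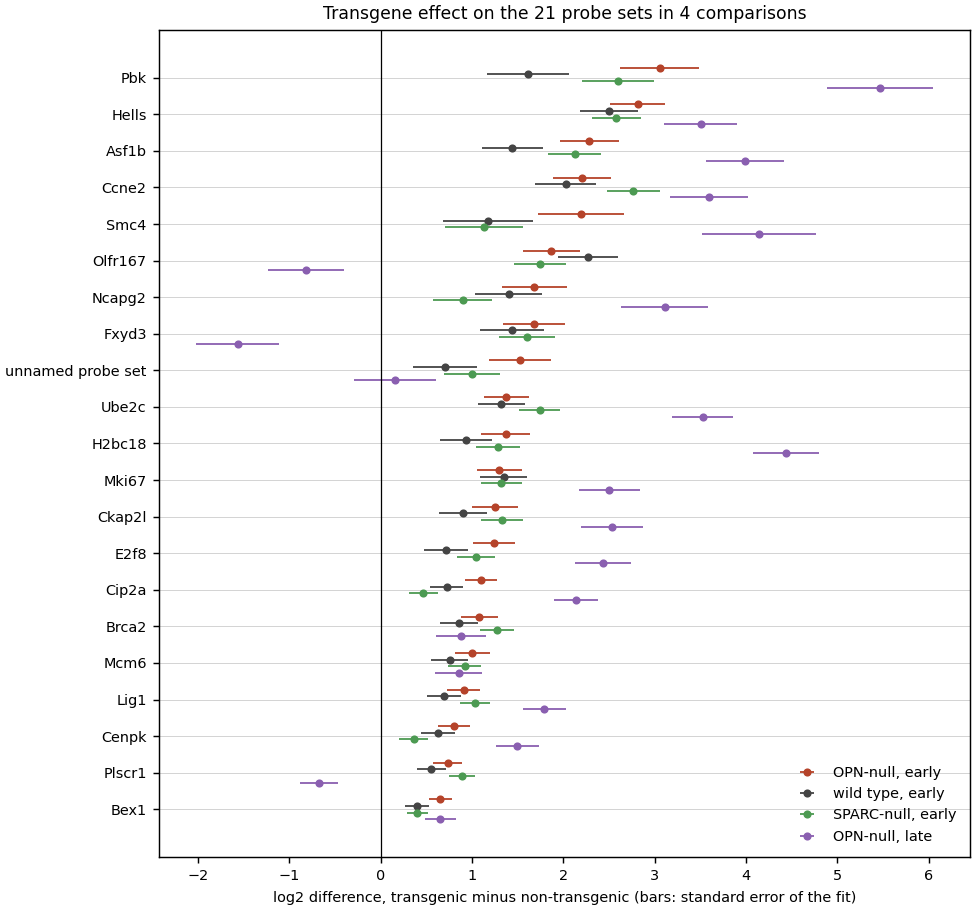
Log2 difference, transgenic minus non-transgenic (x axis), of the 21 probe sets (y axis) in OPN-null early, wild type early, SPARC-null early and OPN-null late comparisons; points are estimates and bars the standard error of the fit. The 3 early comparisons lie on the positive side for every probe set, and in the late one Fxyd3 (-1.56), Olfr167 (-0.82) and Plscr1 (-0.68) lie on the negative side.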

How the data were processed

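RNA of 68 samples was measured on Clariom S arrays. The deposited table holds log2 expression values that the authors made with RMA in the oligo package, per the submitters' processing notes, without version numbers. RMA puts all arrays on 1 distribution, which takes up any global shift in RNA content. The 29129 probe sets include 22206 targets, of which 19572 have 1 symbol in the platform annotation. Their log2 values run from 2.56 to 13.82.

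Limma 3.58.1 in R 4.3.3 fitted 12 group means over 67 arrays, with 1 weight per transgene status (1.11 for transgenic, 0.87 for non-transgenic arrays). Moderated tests were adjusted by Benjamini-Hochberg over the 22206 targets and called under 0.05. Single values were tested by 2-sided exact permutation over 462 splits. O12, with labels that conflict, was left out. The fit was run on simulated data with independent noise and the same shift in every transgenic array of the comparison. Variation that probe sets of 1 array share was not simulated, so the run does not bear on it. Precision is limited by how many arrays there are.

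The genes named were the 15 largest called rises among probe sets with 1 symbol, without predicted genes and olfactory receptors, up to 4 called members of each of 33 lists and up to 2 more by smallest p, Sparc and Spp1, and the 5 largest calls each way per difference of effects; the probe set with the highest mean stood for a gene. Of 522 listed genes 470 were measured. The comparison, lists and rules were chosen with earlier results of these data known. Alternatives changed the weights, the arrays fitted, covariates (age, array quality, seminal vesicle score), scaling, a filter on dim probe sets and the variance model, or left out arrays.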

Additional observations from a re-analysis of the deposited data

Results flagged for a closer look

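Arrays that stood apart from the rest of their group were sought in 50 measures, which gave 100 pairs of group and measure, and 7 were found; an array counted when its gap to the nearest other, divided by the range of the group, passed the 95% critical value of Dixon, which chance alone passes in about 1 in 20 groups. In O8, Brca2 was 7.5, with the other non-transgenic arrays at 6.71 to 6.84. In O9, E2f8 was 5.47 (others 5.98 to 6.18), Tgm4 8.20 (others 12.32 to 13.18) and Adipoq, the fat-cell hormone adiponectin, 8.14 (others 7.08 to 7.33). In OT13, Mki67 was 7.52 (others 6.59 to 6.89) and Tgm4 11.30 (others 12.37 to 12.91). In OT14, the AUC was 0.723 (others 0.740 to 0.745).

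On the OPN-null background the late effect differed from the early one by the test of that difference for 8 of the 21 probe sets. It was larger late for H2bc18 (3.07), Pbk (2.41), Ube2c (2.15), Asf1b (1.71) and Cip2a (1.04), and lower late for Fxyd3 (-3.24), Olfr167 (-2.68) and Plscr1 (-1.41). Over all probe sets, among differences that were called and carry 1 symbol, the 5 largest upward were in Slc25a21 (5.0), Elavl3 (4.30), Ccn3 (4.23), Ipw (4.10) and Elavl4 (3.89), and downward in Pbsn (-5.71), Pate9 (-5.34), Tgm4 (-4.44), Tspan1 (-4.41) and Defb50 (-4.36).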

How the results depend on the processing

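None of the 21 differences changed sign in any of the alternatives run, and 8 of the 21 probe sets were called in all of them. The 21 calls became 34 (33 higher, 1 lower) with 1 weight for all arrays, 113 (104 higher, 9 lower) with 1 weight per array and 52 (48 higher, 4 lower) with array quality as a covariate, each time holding all 21. Array quality as a covariate also gave 1 call for the difference from wild type, 2278 for the late minus the early effect, and 15 of the 21 called in wild type. Age as a covariate, a second quantile normalization and a filter on dim probe sets each gave 1 lower call. Leaving out 1 array at a time gave 13 to 36 calls, 13 to 36 of them higher and 0 to 1 lower. Without O9 and O10, an alternative chosen after seeing the data, 10 were called, all higher. The cause of these changes was not tested. Fitting the 11 arrays alone gave 22 calls, 16 of them among the 21. No paired analysis was possible because the labels give ID codes and no replicate numbers. Age cannot be separated well from the transgene, since 5 of 6 transgenic but 1 of 5 non-transgenic animals were 16 weeks old. Levels near the negative controls, as for Cenpk, limit what the smaller differences show.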

Other observations

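The array coded O12, which the labels put in no settled group, gave log2 values of 5.87 for Hells, 5.87 for Pbk and 7.62 for Ccne2, and an SV40 mean of 5.18.

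Outside the lists, the genes just below the threshold in the early comparison included some of secretory epithelium: B4galnt2, a glycosyltransferase, differed by 1.42 (limma adjusted p = 0.0584), Scnn1a, a subunit of the epithelial sodium channel, by 1.28 (0.0674), and Anpep, an aminopeptidase of epithelial membranes, by 0.94 (0.0822). The 2 lower genes nearest to the threshold were Eci3, an enzyme of fatty acid oxidation, at -0.44 (0.0576), and Dnaic1, a dynein subunit of motile cilia, at -1.22 (0.0674).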
